A study of Mus musculus with 6 samples.

Results

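The 9 genes described here encode myostatin (Mstn), the beta subunits of activin A and activin B (Inhba and Inhbb), follistatin and its relatives (Fst, Fstl1 and Fstl3) and the receptors of the myostatin and activin branch (Acvr1b, Acvr2a and Acvr2b). They were taken by name, and all 9 were among the 21485 genes measured in every sample. Myostatin and the activins are secreted, dimeric members of the TGF-beta superfamily. They bind type II receptors (the products of Acvr2a and Acvr2b), which recruit a type I receptor such as the product of Acvr1b, and the signal passes through Smad2 and Smad3. In skeletal muscle, myostatin and activin A restrain growth, while follistatin and the Fstl3 protein bind these ligands outside the cell and block them. Fstl1 encodes a secreted glycoprotein that shares a follistatin-like domain but is a more distant relative.

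The cells are muscle-derived stem/progenitor cells (MDSPCs), a slowly adhering fraction of dissociated skeletal muscle. The young group and the old group each had 3 MDSPC populations, all grown in proliferation medium, and 1 droplet-based single-cell library was made from each. The labels used here give no age, sex, strain or genotype for the mice, no treatment that would separate the groups, and no statement of how many animals went into a population, so p-values measure the spread between these samples. The comparisons asked how the genes differed between old and young populations and between cells with and without detected RNA of Myod1 and Myog. A cell without detected RNA of a factor may still express it. Myod1 is the factor of committed myoblasts and Myog (myogenin) that of cells entering terminal differentiation.

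After filtering, 61670 of 62849 barcodes were kept, with a median of 13001 to 19951 unique molecular identifiers (UMIs, tags that let each RNA molecule be counted once) per cell. Young replicate 1 and old replicate 1 were counted on a shorter gene list than the other samples, so each group had samples on both lists. Any 2 libraries shared 23 to 35 cell barcodes. The populations differed widely in myogenic cells. At 5000 UMIs per cell, Myod1 RNA was found in 18.2%, 79.4% and 15.7% of cells of the young populations 1 to 3 and, for the old populations 1 to 3, in 15.4%, 74.8% and 92.4%. The corresponding shares for Myog were 3.41%, 20.4%, 5.15%, 0.747%, 14.4% and 46.0%. Values of a gene are listed below in the order of replicates 1, 2 and 3. Of 10 myogenic marker genes, 3 were near the limit of detection in at least 1 sample. Myf5 had 1 count in young replicate 1, Pax7 had 5 counts in young replicate 3, and Chodl had 4 to 22 counts per sample, while Myod1, Cdh15 and Vcam1 were detected throughout. Of the defining markers of other lineages, Ptprc (immune cells) was detected in 0% to 0.0303% of cells and Sox10 (Schwann cells) in 0% to 0.0101%, while Pecam1 (endothelial cells) was detected in 0.132% to 0.442%. The endothelial list summed to 59.4 CPM (counts scaled to a common library total, in these marker sums without TMM factors) in young replicate 2, nearly all of it from Tek, and to 0.546 to 1.72 CPM elsewhere. The fibro-adipogenic list summed to 283 to 511 CPM, with Lum at 0 in 5 of 6 samples. Gsn had the highest mean level in this list (7.68 as log2 CPM), while Pdgfra (-0.34) and Dcn (-0.29) lay far lower. Scx, a tendon marker, carried most of the tenocyte list (125 to 304 CPM), whose member Tnmd was at 0 in 3 samples.

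The sequence just before the start of 3 of the genes is shown because these genes differed in their relation to Myog. In the 1 library with Mstn counts above the floor they came almost wholly from Myog-positive cells, while Acvr2a was higher and Inhba lower in such cells. Each run gives the 250 bases before the RefSeq gene start on GRCm38.p6, 5′ to 3′, and capitals mark every match to CANNTG, the E-box motif bound by basic helix-loop-helix factors such as those encoded by Myod1 and Myog. The pattern CANNTG is its own reverse complement, so both strands were searched at once.
Mstn promoter, chr1:53061390-53061639, plus strand: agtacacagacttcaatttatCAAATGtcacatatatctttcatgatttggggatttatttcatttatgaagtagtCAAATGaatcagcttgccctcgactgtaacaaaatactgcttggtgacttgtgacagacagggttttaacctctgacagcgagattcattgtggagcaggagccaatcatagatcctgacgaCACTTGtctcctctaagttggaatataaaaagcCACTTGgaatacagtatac
Inhba promoter, chr13:16011601-16011850, plus strand: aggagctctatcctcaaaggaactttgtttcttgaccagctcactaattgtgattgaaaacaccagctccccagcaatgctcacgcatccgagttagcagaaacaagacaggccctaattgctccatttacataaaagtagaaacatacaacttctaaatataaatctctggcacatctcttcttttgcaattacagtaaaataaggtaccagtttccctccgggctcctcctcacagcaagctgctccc
Acvr2a promoter, chr2:48813859-48814108, plus strand: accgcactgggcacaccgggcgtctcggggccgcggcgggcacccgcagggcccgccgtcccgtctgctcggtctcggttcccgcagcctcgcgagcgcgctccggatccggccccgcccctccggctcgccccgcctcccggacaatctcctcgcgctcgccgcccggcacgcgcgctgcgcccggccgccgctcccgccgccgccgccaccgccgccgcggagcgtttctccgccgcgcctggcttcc
The Mstn window held 4 matches, and the Inhba and Acvr2a windows held 0. Across the 8 members found in the RefSeq promoter table, 3 held at least 1 match (Mstn with 4, Fstl3 with 3 and Acvr1b with 1), while 66.2% of 32851 promoters of the same length did. The narrower word CAGCTG, a subset of CANNTG, was found in 0 of the 8 and in 13.0% of all promoters. GC content was 38.4% in the Mstn window, 43.2% in the Inhba window and 82.0% in the Acvr2a window, against a median of 52.4% over all promoters. A match or its absence describes these letters only.

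Myostatin RNA was at the limit of detection in 5 of the 6 populations. Mstn (chromosome 1, 53061640 to 53068079 on the plus strand, GRCm38) had 1, 1 and 0 counts across the young populations, against 0, 2 and 86 across the old ones. Old replicate 3 alone had more than the 3 counts taken as the floor, and its level was 0.499 CPM. In the other libraries the floor of 3 counts stood at 0.0155 to 0.0225 CPM without scaling, counting error only. In old replicate 3, 0.431% of cells had a Mstn UMI before cells were thinned to 1 depth and 0.0904% at 5000 UMIs. At the same depth, the 0 of 8443 cells in young replicate 1 (which had 1 Mstn count without thinning) allows a share of up to 0.0355%, and the 0 of 9904 cells in old replicate 1 up to 0.0303%. These limits are on cells that give a Mstn UMI at that depth, not on cells that express the gene. In old replicate 3, 83 of the 86 Mstn counts (96.5%) lay in Myog-positive cells, which made up 56.0% of its cells without thinning. Old replicate 3 was also the population with the most Myog-positive cells. Mstn did not pass the filter on low counts in any main comparison, so those comparisons give it no test.

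Inhba, which encodes the subunit of activin A, varied 8.0-fold between populations and did not separate by group. Its level (chromosome 13, 16011851 to 16031621, plus strand) was 10.4, 83.5 and 35.1 CPM across the young populations, against 20.3, 30.8 and 11.3 CPM across the old ones. Young replicate 2 was highest and young replicate 1 lowest, so the young samples spanned the old ones. At 5000 UMIs per cell, Inhba was detected in 3.85%, 24.4% and 15.6% of young cells, against 9.24%, 13.2% and 2.69% of old cells. Without thinning the shares ran from 6.22% in old replicate 3 to 48.4% in young replicate 2. Inhbb, the activin B subunit gene (chromosome 1, 119415465 to 119422248, minus strand), had 11, 84 and 0 young counts, against 36, 429 and 28 old counts. Old replicate 2 stood highest at 2.31 CPM, and the others lay between 0 and 0.436 CPM. The young and old values of Inhbb overlapped.

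Follistatin and Fstl3 were the 2 members whose old samples all lay above all young samples, as did 3.64% of all 14512 genes tested. The Fst level (chromosome 13, 114452290 to 114458951, minus strand) was 16.0, 7.28 and 13.7 CPM across the young populations, against 17.0, 31.1 and 59.0 CPM across the old ones. The values of young replicate 1 and old replicate 1, both counted on the shorter gene list, were close on this TMM-scaled measure, and stood at 13.6 and 18.8 CPM without scaling. Fst was detected in 5.18%, 2.09% and 6.51% of young cells, against 8.04%, 10.5% and 16.6% of old cells at 5000 UMIs. Without thinning these shares were 13.0%, 4.22% and 17.3% for young, against 19.5%, 27.3% and 31.1% for old cells, again with no overlap. For shares of cells, overlap was not counted over all genes. Fstl3 (chromosome 10, 79777272 to 79782630, plus strand) had 4, 60 and 11 young counts, against 1326, 124 and 359 old counts. As levels these were 0.0353, 0.311 and 0.0538 CPM against 7.90, 0.668 and 2.08 CPM. Old replicate 1 had the highest level, and the nearest values of the groups were those of young replicate 2 and old replicate 2. Fstl3 was detected in 0.0355%, 0.169% and 0.0470% of young cells, against 3.84%, 0.341% and 0.764% of old cells at 5000 UMIs, and the young shares and that of old replicate 2 lay within the range of Pecam1 or below it. The gene overlaps Prss57 on the opposite strand, which had 3, 2 and 3 young counts, against 89, 2 and 8 old counts. Whether counting used strand is not given in the sources used here, so reads of the pair cannot be told apart.

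Fstl1 (chromosome 16, 37776873 to 37836514, plus strand) stood at 57.6, 136 and 30.4 CPM across the young populations, against 43.8, 2.79 and 25.9 CPM across the old ones. Young replicate 2 was highest and old replicate 2 lowest, and the groups overlapped through old replicate 1. The share of cells with a Fstl1 UMI at 5000 UMIs was 44.5% in young replicate 2 and 1.49% in old replicate 2, and 7.99% to 20.3% in the others. Without thinning it was 78.5% and 4.77% in those 2 samples.

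Of the 9 genes, the receptor genes Acvr1b and Acvr2a varied least between populations. Acvr1b, the type I receptor gene (chromosome 15, 101174067 to 101213684, plus strand), had young levels of 2.26, 2.76 and 2.35 CPM, against old levels of 1.63, 2.31 and 1.84 CPM, a range of 1.69-fold. Acvr2a (chromosome 2, 48814109 to 48903269, plus strand) had young levels of 8.84, 16.7 and 14.8 CPM, against old levels of 7.77, 16.1 and 25.5 CPM. Both samples on the shorter gene list were low for Acvr2a, and old replicate 3 was highest. Acvr2b (chromosome 9, 119402118 to 119434995, plus strand) had young levels of 1.07, 4.58 and 2.01 CPM, against old levels of 1.57, 0.706 and 0.649 CPM. Young replicate 2 was highest, and the groups overlapped for all 3 receptors. At 5000 UMIs, Acvr2a was detected in 4.25% to 11.8% of cells, Acvr1b in 0.863% to 1.46% and Acvr2b in 0.345% to 1.99%. Without thinning those ranges were 10.3% to 27.6%, 2.49% to 4.77% and 0.893% to 7.62%.

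**Figure D1:**
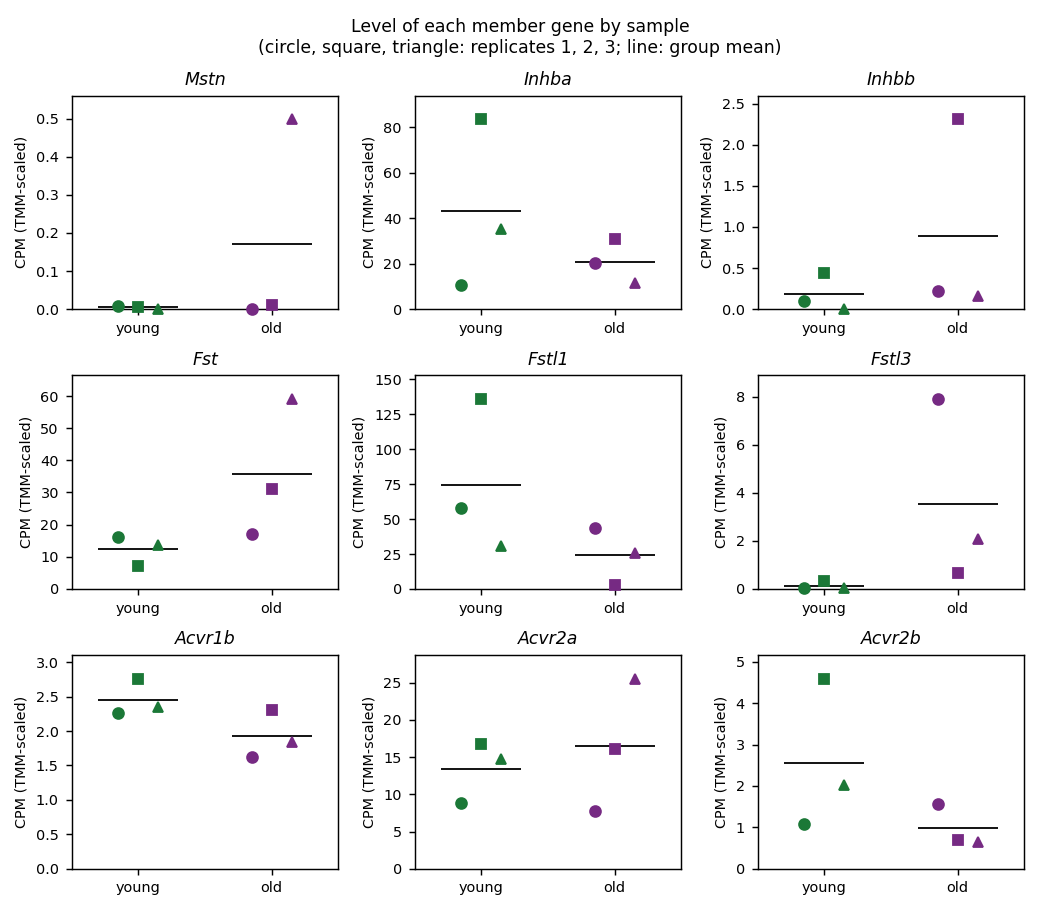
Level of each member gene in CPM (TMM scaling, linear axes starting at 0) in the 3 young and 3 old MDSPC populations, 1 point per population. Old points lie above all young points for Fst and Fstl3, as for 3.64% of all genes tested, and Mstn is above its floor in old replicate 3 only.

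In the comparison of old with young populations, edgeR called none of the 8 members tested. Among all 14512 genes tested it called 1 higher (0.00689%) and 0 lower in old samples, with 512 at an unadjusted p under 0.05. The gene called was Cyba, which is outside the rule for named genes and was named after its values were seen because it was the only one. The Fst means were 12.3 ± 4.52 CPM in young and 35.7 ± 21.4 CPM in old samples (SD, n = 3 each), a log2 difference of 1.46 (SE 0.57). Fst was higher in 3 of 3 old samples than in any young sample, yet its edgeR adjusted p was 1.00 (0.399 to 1 over the alternatives, unadjusted 0.0468). The Fstl3 means were 0.133 ± 0.154 and 3.55 ± 3.84 CPM, a log2 difference of 4.17 (SE 1.47, and 2.91 to 5.82 over 15 alternatives). Fstl3 was likewise higher in 3 of 3 old samples, with an edgeR adjusted p of 1.00 (0.0236 to 1 over the alternatives, unadjusted 0.0317). The value of 0.0236 came from DESeq2, which called Fstl3. Across all genes tested, 3.64% had every old sample above every young sample and 6.06% had no overlap in either direction (2.42% had every old sample lower), against 2 of 8 members, both higher.

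Within the samples of the longer list the old minus young difference was 2.10 for Fst and 2.91 for Fstl3 on the log2 scale. The shorter list holds 1 sample per group, so it gives the values above and no test. Myog-positive cells were most frequent in old replicate 3, where Fst was also highest. Among Myog-negative cells alone, an alternative chosen after seeing the data, the difference was 1.08 for Fst (unadjusted p = 0.262 with edgeR) and 3.47 for Fstl3 (unadjusted p = 0.0304 with edgeR). In bulk sums, more cells of a type and more RNA per cell cannot be told apart. Genes of chromosome 13, which carries Fst and Inhba, had a median shift of 0.38 (log2) in old replicate 2 against the other samples, and its part in the values of these genes was not tested.

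The other members also did not pass. Inhba means were 43.0 ± 37.1 CPM in young and 20.8 ± 9.77 CPM in old samples (SD, n = 3 each), a log2 difference of -0.72 (SE 0.74). That difference was -0.08 without young replicate 2 and -0.09 without old replicate 3. Fstl1 gave a log2 difference of -1.85 (SE 1.08), and -0.79 without young replicate 2. Inhbb gave 2.07 (SE 1.81), and 0.25 without old replicate 2. The receptors gave -0.36 (SE 0.43) for Acvr1b, 0.21 (SE 0.28) for Acvr2a and -1.40 (SE 0.85) for Acvr2b. The median log2 difference over the 8 members was -0.08, against -0.01 over all genes tested, and 4 of 8 were positive against 48.9% of all genes.

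**Figure D2:**
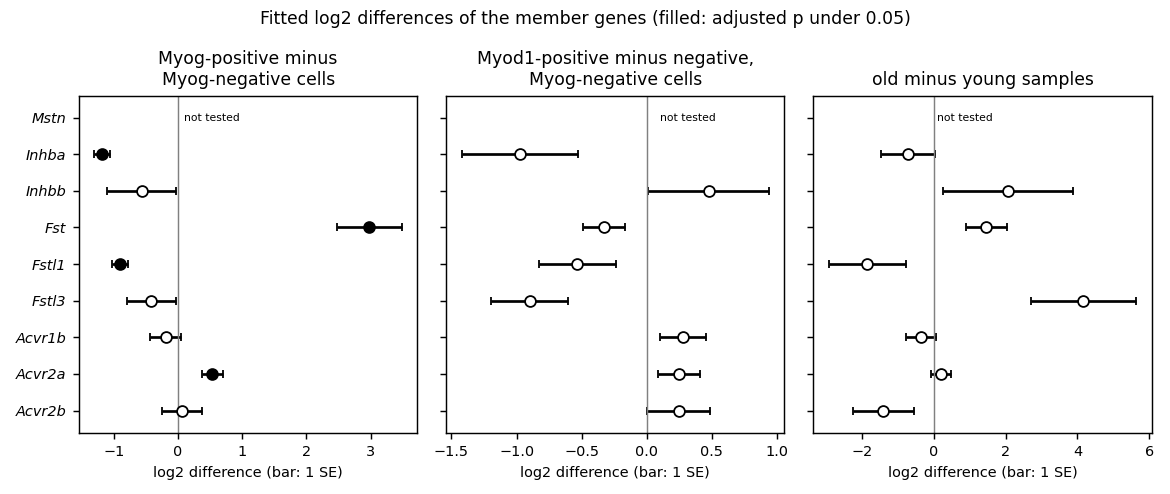
Log2 difference of each member for Myog-positive minus Myog-negative cells (left), Myod1-positive minus Myod1-negative cells among Myog-negative ones (middle) and old minus young populations (right); points are edgeR estimates, bars are 1 model-based SE, and filled points passed an adjusted p of 0.05. Fst and Acvr2a (higher) and Inhba and Fstl1 (lower) passed in the left panel, and no member in the others; Mstn was not tested.

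The second comparison set cells with 1 or more Myog UMIs against cells with none, within each sample, after all cells were thinned to 5000 UMIs. This used 60302 cells and left out 539 young and 829 old cells of lower depth. The Myog-positive class held 288, 2174 and 548 young cells, against 74, 1222 and 5601 old cells. The classes separated by differentiation genes. All 8 differentiating-myocyte markers were higher in Myog-positive cells, among them Myh3 (embryonic myosin, log2 difference 7.68, edgeR adjusted p = 0.00298), and Mef2c differed by 3.51. Of 13760 genes tested, edgeR called 1743 higher (12.7%) and 2284 lower (16.6%). Of 8 members tested, 2 were higher (Fst and Acvr2a) and 2 lower (Inhba and Fstl1).

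Follistatin RNA stood at a higher level in Myog-positive than in Myog-negative cells of every population. In Myog-negative cells Fst stood at 9.61, 0.968 and 14.1 CPM across the young populations, against 17.8, 20.3 and 15.6 CPM across the old ones. In Myog-positive cells the young values were 144, 33.7 and 41.2 CPM, and the old values 114, 110 and 95.7 CPM. Every Myog-positive value lay above every Myog-negative value. The ratio within a sample was 15.02, 34.8 and 2.92 for the young populations, against 6.38, 5.44 and 6.15 for the old ones. The fitted log2 difference for Fst was 2.98 (SE 0.51), higher in 6 of 6 samples (edgeR adjusted p = 0.0104, and 5.56e-09 to 0.0378 over 15 alternatives). Myog-positive cells made up 0.747% to 46.0% of cells but held 34.7%, 89.9% and 13.7% of the young Fst counts, against 4.58%, 47.7% and 84.0% of the old. After thinning, most Fst counts thus lay in Myog-negative cells in 4 of 6 populations, the exceptions being young replicate 2 and old replicate 3. Without thinning, Myog-positive cells were a larger share of every population, as in old replicate 2 (22.4% against 14.4%). The split of Fst counts was not computed without thinning. Whether old replicate 2, at 47.7%, would stay on the same side was therefore not tested.

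The Fst level also followed the number of Myog UMIs. In cells with 5 or more Myog UMIs the young values were 241, 61.9 and 129 CPM and the old values 281, 195 and 137 CPM, above the level of the whole Myog-positive class in each. In cells with exactly 1 Myog UMI the young values were 59.3, 2.19 and 11.1 CPM and the old values 22.2, 41.6 and 27.8 CPM. In young replicate 3 the level at 1 UMI (11.1 CPM) lay below that of Myog-negative cells (14.1 CPM), so the higher level in that sample came from cells with more Myog RNA. Of the members, Fst had the highest variance over mean of its counts per cell in 5 of 6 samples. For Fst this ratio was 1.24 to 2.98, where counts of equal expectation in each cell would give 1. The ratio stays near 1 for genes with few counts, so it does not rank genes of unlike level by unevenness. Up to 21 Fst UMIs were found in 1 cell thinned to 5000 UMIs, in old replicate 2.

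**Figure D3:**
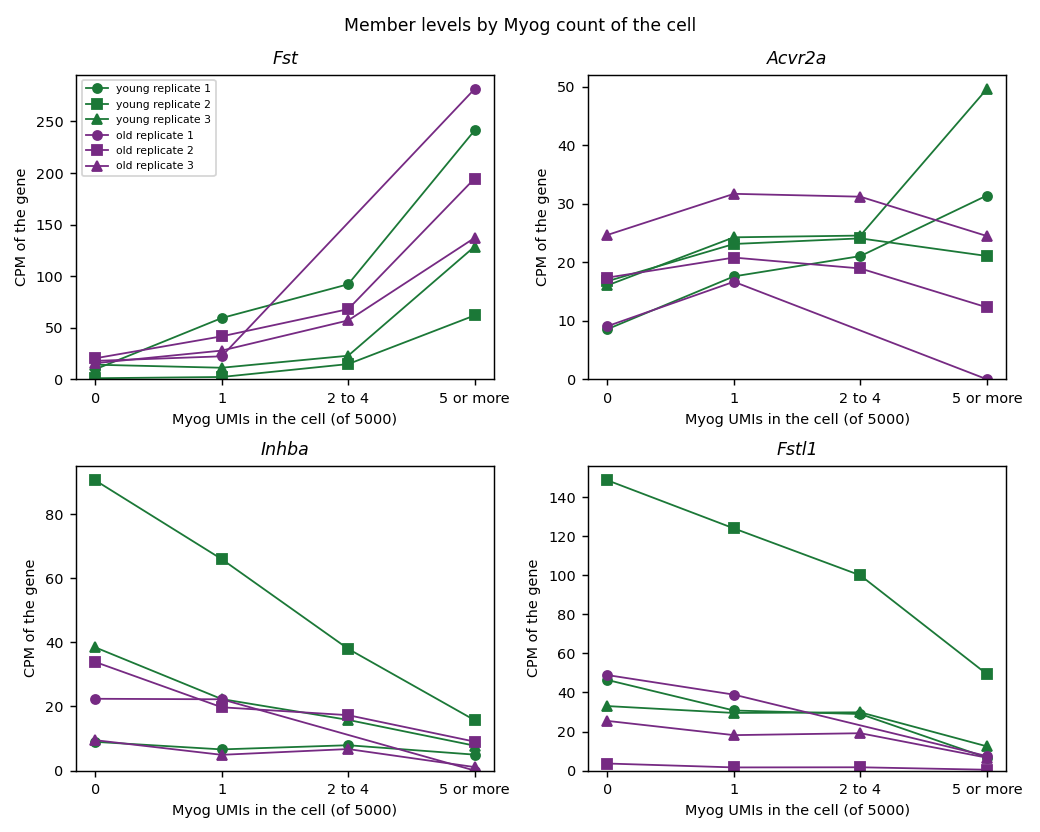
Levels in CPM (linear axes starting at 0) of Fst, Acvr2a, Inhba and Fstl1 in cells grouped by their number of Myog UMIs, 1 line per population, at 5000 UMIs per cell; groups of fewer than 20 cells are not drawn. Fst is highest at 5 or more Myog UMIs in all 6 populations, while Inhba and Fstl1 are lowest there; old replicate 1 had 0 Inhba counts in that group.

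The activin A subunit gene moved the other way. Inhba stood at 8.95, 90.5 and 38.4 CPM in Myog-negative and at 6.25, 35.5 and 17.5 CPM in Myog-positive cells of young replicates 1, 2 and 3. In old replicates 1, 2 and 3 it was 22.4, 33.9 and 9.47 CPM in Myog-negative and 16.2, 14.7 and 3.14 CPM in Myog-positive cells. Inhba was lower in Myog-positive cells of 6 of 6 samples, by a fitted log2 difference of -1.18 (SE 0.12; edgeR adjusted p = 6.22e-05, and 3.13e-08 to 0.546 over 15 alternatives). The call was lost in 1 of the alternatives, the fit that did not keep the sample as a block. The Myog-positive values of young replicate 1 and old replicate 1 rested on 9 and 6 Inhba counts. In cells with 5 or more Myog UMIs Inhba was 15.7 CPM in young replicate 2 and 1.08 CPM in old replicate 3.

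Fstl1 was also lower in Myog-positive cells of all 6 samples. It fell from 46.4 to 20.1 CPM in young replicate 1, from 149 to 82.8 CPM in young replicate 2 and from 33.0 to 25.6 CPM in young replicate 3. In the old samples the pairs were 48.9 and 24.3 CPM, 3.59 and 1.15 CPM, and 25.4 and 11.9 CPM. The Myog-positive values of old replicate 1 and old replicate 2 rested on 9 and 7 Fstl1 counts. The fitted log2 difference was -0.90 (SE 0.13; edgeR adjusted p = 0.000563, and 3.30e-06 to 0.758 over 15 alternatives), with the call again lost without the sample block. The Myog-positive cells of young replicate 2 had more Fstl1 than the Myog-negative cells of all other samples.

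Acvr2a was the receptor gene that rose. It was 8.56, 16.8 and 16.1 CPM in Myog-negative and 24.3, 22.4 and 30.3 CPM in Myog-positive cells of young replicates 1, 2 and 3. In the old samples it was 9.07, 17.4 and 24.7 CPM in Myog-negative and 10.8, 16.9 and 27.5 CPM in Myog-positive cells. The value of old replicate 1 in Myog-positive cells rested on 4 counts. Acvr2a was higher in 5 of 6 samples, that one included, by a fitted log2 difference of 0.53 (SE 0.16; edgeR adjusted p = 0.0290, and 0.0150 to 0.440 over 15 alternatives). Of these alternatives 9 kept the call and 6 lost it. By edgeR its adjusted p was 0.440 without the sample block, 0.0773 with positivity at 2 or more Myog UMIs, 0.0759 at 2500 UMIs per cell, 0.0649 without young replicate 2, 0.0812 without young replicate 3 and 0.0513 without old replicate 1. In cells with 5 or more Myog UMIs the young values were 31.4, 21.1 and 49.6 CPM, all above the Myog-negative cells of their samples, and the old values 0, 12.3 and 24.5 CPM, below them, the last only slightly. The value of 0 rested on 27 cells of old replicate 1. Acvr2a overlaps Orc4 on the opposite strand, which was 39.7 to 55.2 CPM per sample without TMM scaling and did not pass the test between the classes (log2 difference -0.03, edgeR adjusted p = 0.916).

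The other members tested did not pass. Their log2 differences between Myog-positive and Myog-negative cells were -0.57 (SE 0.54) for Inhbb, -0.42 (SE 0.38) for Fstl3, -0.19 (SE 0.24) for Acvr1b and 0.06 (SE 0.31) for Acvr2b. Their counts in Myog-positive cells were few, with at most 45 for any of these genes in 1 sample. The median over the 8 members was -0.30, against -0.07 over all genes tested.

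Of 4 cycling markers, edgeR called Mki67 (log2 difference -0.92, adjusted p = 0.0286, lower in 6 of 6 samples) and Cdk1 (-0.81, adjusted p = 0.0490) lower in Myog-positive cells. Top2a (-0.96, edgeR adjusted p = 0.0956, lower in 5 of 6 samples) and Ccnb1 (-0.71, edgeR adjusted p = 0.0906) did not pass. The summed level of these markers was lower in Myog-positive cells of every sample but young replicate 3, where it was 667 CPM in Myog-positive and 652 CPM in Myog-negative cells. Cells with no UMI of 4 cycling markers made up 18.6% to 56.0% of Myog-negative and 25.4% to 79.8% of Myog-positive cells. Among such cells alone, an alternative chosen after seeing the data, the log2 differences were 3.56 for Fst, -1.58 for Inhba, -1.21 for Fstl1 and 0.52 for Acvr2a, and all 4 were called by edgeR, among 1713 genes called higher and 2268 lower of 12536 tested in those cells. The summed level of the fibro-adipogenic markers was 162 to 423 CPM in Myog-positive and 284 to 541 CPM in Myog-negative cells, lower in Myog-positive cells in 5 of 6 samples, and its part in the differences of Inhba and Fstl1 was not tested. The tenocyte markers summed to 121 to 289 CPM in Myog-negative and 212 to 382 CPM in Myog-positive cells, higher in Myog-positive cells of 6 of 6 samples. Their main contributor Scx was called higher (log2 difference 0.71, edgeR adjusted p = 0.00176). The other tenocyte marker tested, Mkx, went the other way and did not pass (-0.66, edgeR adjusted p = 0.0719). The part of these markers in the differences of Fst and Acvr2a was not tested.

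The difference between classes was then compared between the groups. For the class by group term edgeR called 0 of 13760 genes (0%), with 372 at an unadjusted p under 0.05, and DESeq2 also called 0, with 173 unadjusted. The term was -0.73 (SE 0.26) for Acvr2a on the log2 scale (edgeR adjusted p = 1.00, unadjusted 0.0158). The Acvr2a ratios of Myog-positive over Myog-negative cells were 2.84, 1.33 and 1.89 for young populations, against 1.19, 0.970 and 1.12 for old ones. The ratio of 1.19 rested on 4 Acvr2a counts in Myog-positive cells of old replicate 1. The term was -0.82 (SE 1.01) for Fst and -0.10 (SE 0.26) for Inhba, and neither passed.

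Within Myog-negative cells, those with 1 or more Myod1 UMIs were set against those with none. Here edgeR called 53 of 13199 genes higher (0.402%) and 61 lower (0.462%), and none of 8 members, of which 1 had an unadjusted p under 0.05. That member was Fstl3, with a log2 difference of -0.90 (SE 0.29; edgeR adjusted p = 0.140, and 0.0941 to 1.00 over 14 alternatives). Fstl3 was lower in Myod1-positive cells in the 4 samples with enough counts for a ratio, at ratios of 0.341 to 0.937.

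Inhba was lower in Myod1-positive cells of 6 of 6 samples but by very different amounts. With neither factor detected it stood at 9.68, 121 and 39.2 CPM across the young populations, against 24.5, 39.2 and 47.5 CPM across the old ones. With Myod1 alone the young values were 5.31, 81.1 and 33.6 CPM, and the old values 10.1, 31.7 and 4.82 CPM. The largest gap was in old replicate 3, where 716 cells had neither factor and 5851 had Myod1 alone. In that sample the fibro-adipogenic markers summed to 501 CPM in cells with neither factor and 341 CPM in cells with Myod1 alone, and the pericyte and smooth muscle markers to 48.9 and 28.5 CPM. The tenocyte markers went the other way, at 143 and 221 CPM. In every other sample the pericyte and smooth muscle sum was higher with Myod1 alone, as in old replicate 2 (34.2 CPM with neither factor, 50.3 CPM with Myod1 alone). The part of these markers in the Inhba differences was not tested. The fitted log2 difference was -0.97 (SE 0.45; edgeR adjusted p = 0.332, and 0.153 to 1.00 over 14 alternatives). Fstl1 followed in the same sample, at 77.7 CPM with neither factor and 19.0 CPM with Myod1 alone, and its fitted difference was -0.54 (SE 0.30). Fst did not share the pattern it had with Myog: its difference was -0.33 (SE 0.16), with ratios of 0.328 to 1.18. The receptors gave 0.28 (SE 0.18) for Acvr1b, 0.25 (SE 0.16) for Acvr2a and 0.24 (SE 0.24) for Acvr2b.

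**Figure D4:**
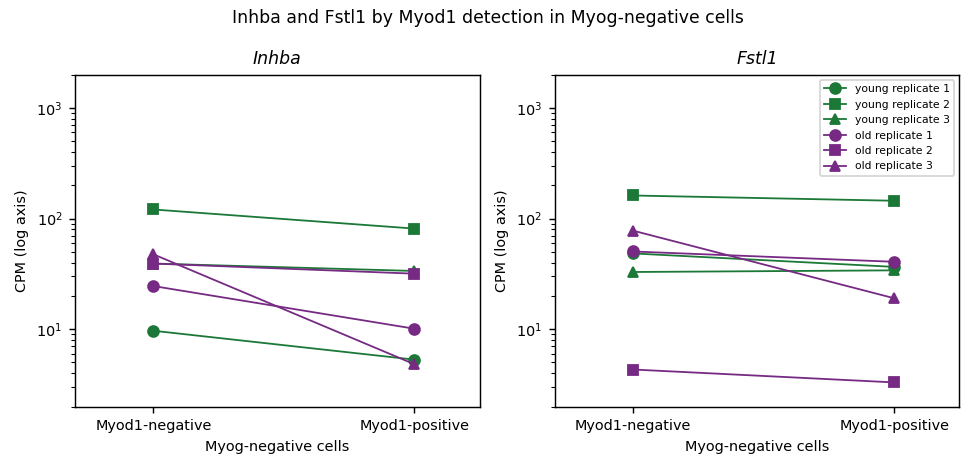
Inhba and Fstl1 levels in CPM (log axis) in Myog-negative cells without and with a Myod1 UMI, 1 line per population, at 5000 UMIs per cell. The line of old replicate 3 is the steepest for both genes, from 47.5 to 4.82 CPM for Inhba and from 77.7 to 19.0 CPM for Fstl1.

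Inhba and Fstl1 were found in the same cells more often than their separate shares would give. The number of cells with both, over the number expected if they were independent, was 1.30, 1.21 and 1.14 for the young populations, against 1.20, 1.44 and 3.56 for the old ones. In Myog-negative cells alone the young ratios were 1.31, 1.14 and 1.13, and the old ratios 1.20, 1.40 and 3.28. Old replicate 3 stood apart, with 93 cells holding both against 26.1 expected. Among its Myog-negative cells both genes were lower with Myod1 than without, at ratios of 0.101 for Inhba and 0.245 for Fstl1. The expected numbers do not take the Myod1 classes into account, and the part of these classes in the excess was not tested. Inhba and Fstl3 were also found together in that sample in more cells than expected, though in few cells. Inhba and Fst were found together at 0.240 to 1.14 times the expected number, lowest in young replicate 2 with 13 cells. In Myog-negative cells alone these ratios were 0.804, 0.914 and 1.16 for young populations, against 1.14, 0.966 and 1.84 for old ones, so the low ratio of young replicate 2 was not found within that class. The ratios of observed over expected numbers describe cells within a library and carry no test.

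Other genes of the pathway, from lists by role, were called in the Myog comparison in both directions. Of 6 other ligand genes tested, 3 were higher and 0 lower in Myog-positive cells. These were Inha, the inhibin alpha subunit (log2 difference 2.93, SE 0.20, edgeR adjusted p = 6.26e-06), Tgfb2 (1.03, SE 0.15) and Tgfb3 (1.43, SE 0.38). Inha pairs with the beta subunits to form inhibins, which oppose activins. Of 7 other receptors and coreceptors, 0 were higher and 3 lower, namely Tgfbr3 (betaglycan, -1.62), Bambi (a pseudoreceptor, -1.17) and Acvr1 (-0.26). Of 7 other extracellular binders, Fstl4 was higher (1.46) and the latent TGF-beta binding protein genes Ltbp1 (-0.50) and Ltbp4 (-0.50) were lower. Mean levels in this fit, as log2 CPM, were low for Fstl4 (-0.50), Bambi (1.10), Inha (1.15) and Tgfbr3 (1.24). These lay near or below that of Acvr1b (1.21), whose counts in Myog-positive cells were few.

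Of 5 propeptide protease genes tested, 1 was higher and 2 lower. Furin, which cleaves TGF-beta family precursors, was higher (0.48), while Bmp1 (-0.58) and Tll1 (-2.49), of the proteases that release latent myostatin, were lower. Tll1 was also low in mean level (0.48 as log2 CPM). Of 11 intracellular transducers and brakes, 1 was higher and 5 lower, among them Skil (0.38), the inhibitory Smad gene Smad7 (-0.60) and the ubiquitin ligase gene Smurf1 (-0.52). Among genes of muscle growth and atrophy, Trim63, which encodes a muscle ubiquitin ligase (MuRF1), was higher (4.41, SE 0.66, edgeR adjusted p = 0.00443), as was Foxo1 (0.84). The counts of the lists stand beside the 12.7% higher and 16.6% lower among all genes. In old against young samples edgeR called 0 genes of any of these lists.

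Across the 6 samples genes whose levels were like those of Mstn, Inhba and Fst were listed by Pearson correlation of log2(CPM + 1) among 4168 genes. They were Timm9 (r = 0.99), Ccnd3 (0.96) and Sppl2a (0.96) for Mstn. They were Carnmt1 (0.98), Cplane1 (0.98) and Cdk5rap2 (0.97) for Inhba, and Dnajc21 (0.95) and Pacsin2 (0.94) for Fst. The points share library and depth, and those of Mstn are set by old replicate 3. With 6 points and 4168 genes, correlations of this size describe these samples only.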

How the data were processed

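For each of the 6 samples the authors deposited unnormalized UMI counts by gene and barcode. Per the file headers, the software was Cell Ranger 7.0.0 for young and old replicate 1 and 7.2.0 for the others. The build mm10, Cell Ranger 7.2.0 and Seurat 5.134 are named per the submitters' processing notes; the use of introns and strand in counting is not given in the sources used here. Barcodes with fewer than 1000 UMIs, fewer than 500 genes or 15% or more mitochondrial UMIs were left out. Scrublet (scanpy 1.11.5) called 3 cells (0.00486%), so doublets were in effect not removed; removing cells with the highest scores was an alternative. Only the 21485 genes on both lists were used. Counts summed per sample, or per sample and cell class after thinning to 5000 UMIs, were tested with edgeR 4.0.16 (R 4.3.3; TMM, filterByExpr, two-sided quasi-likelihood F test with robust dispersion, Benjamini-Hochberg at 0.05), with terms for the gene list and group, or for sample and class. CPM of the members per sample are TMM-scaled unless called unscaled, sums of marker lists and CPM of overlapping genes are unscaled, and CPM per class are shares of the thinned UMIs. A class needed 20 cells in a sample. Standard errors are the absolute log2 difference over the root of F. Intervals and floors of 3 counts cover counting error only. Alternatives included DESeq2 1.42.0. The 9 members, the pathway lists and the rule for names (of each list, the 3 genes with the lowest p in the Myog comparison) were chosen with earlier results of these data known. Gene positions are from GENCODE M21 and promoters from RefSeq. Fst had no entry in the promoter table. Barcodes under the limits entered no comparison. Of the named genes, 2 are not reported here.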

Additional observations from a re-analysis of the deposited data

Results flagged for a closer look

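In Myog-negative cells, the ratio of Inhba in Myod1-positive over Myod1-negative cells was 0.101 in old replicate 3, far below the other 5 samples (0.411 to 0.857). On the log2 scale its gap to the nearest sample was 0.656 of the whole range of 6 samples, above Dixon's 95% limit. The same ratio for Fstl1 was 0.245 in old replicate 3, with a gap of 0.782 of the range, while the others lay at 0.756 to 1.03. Both flags come from the same cells of 1 library. In these cells the fibro-adipogenic markers summed to 501 CPM without and 341 CPM with Myod1, and the tenocyte markers to 143 and 221 CPM. The fibro-adipogenic sum was also lower with Myod1 in old replicates 1 and 2 and young replicate 2, which were not flagged. It was higher with Myod1 in young replicates 1 and 3. The part of these markers in the flagged ratios was not tested. Of 13 sets of ratios examined, 2 were flagged, and chance flags about 1 in 20.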

How the results depend on the processing

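Depth limits Mstn, Inhbb, Fstl3, Acvr1b and Acvr2b, whose class sums held few counts. For old against young, the 1 gene called became 218 with DESeq2 (1 member, Fstl3), 0 without the gene list term, 0 with the longer list only, and 0 to 3 when each sample was left out (0 without young replicate 1 or old replicate 1, 3 without young replicate 3); edgeR called 0 members in each. For Myog, leaving out each sample gave 2742 to 4051 genes and 3 to 4 members. With no replicate block (the sample term dropped) 166 genes and 1 member, Fst, were called. For Myod1, the 114 genes became 684 with DESeq2, 329 with no filter, 399 with positivity at 2 or more UMIs, 0 without thinning, 0 with no replicate block, and 4 to 249 when each sample was left out: leaving out young replicate 1 gave 6, young replicate 2 gave 249, young replicate 3 gave 247, old replicate 1 gave 17 and old replicate 2 gave 4. The interaction gave 0 to 5 genes, 5 without old replicate 1.

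Some differences that were never called changed sign. Acvr2a in old against young was -0.0622 without old replicate 3 (-0.0622 to 0.40 when each sample was left out). In the Myog comparison Inhbb was 0.17 with DESeq2, 0.0932 without thinning and 0.22 without old replicate 2 (-0.84 to 0.22 when each sample was left out). Acvr1b was 0.25 at 2500 UMIs and 0.0481 without thinning. Acvr2b was -0.0425 with DESeq2, -0.0233 with no replicate block, -0.16 with positivity at 2 or more UMIs, -0.10 without young replicate 3, -0.0799 without old replicate 3 (-0.0975 to 0.15 when each sample was left out) and -0.0465 in cells without cycling markers. In the Myod1 comparison at 2500 UMIs Fst was 0.0445 and Acvr1b -0.16. The cause of these changes was not tested. Mstn entered the Myog fit only without thinning (log2 difference 3.95, edgeR adjusted p = 0.00914) or with no filter on low counts (2.89, edgeR adjusted p = 0.0566). Old replicate 3 held 86 of its counts and every other library at most 2, so neither value is a test over 6 samples.

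The labels do not say whether replicate numbers pair young and old samples, and correlations over 3 samples per group cannot settle it. Deviations from the group means correlated at 0.41, 0.32 and -0.13 for same-numbered samples. For samples of unlike number the correlations ran from -0.52 to 0.37. With the replicate block, old against young called 1 gene and 0 members.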
